A study of Mus musculus with 36 samples.

Results

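The 9 genes described here are the amyloid precursor protein family (App, Aplp1 and Aplp2), the proteases and protease subunits that cut its members (Bace1, Bace2, Adam10, Psen2 and Ncstn), and Thy1, whose regulatory cassette drives the APP transgene of the mouse line studied. They were chosen by symbol, through mouse Ensembl identifiers, from a gene count table with 55421 rows, and all 9 were among the 19478 genes that passed the filter on low counts. RNA had been sequenced from slices of the right hippocampus of 18 mice. WT mice were C57BL/6. T41B mice carried human APP with the London and Swedish mutations under the Thy1 cassette (Line 41), an amyloid model of Alzheimer's disease. All mice of both genotypes were dosed by oral gavage for 3 months, between 13 and 16 months of age, with vehicle or with BD10-2, which partially activates TrkB and TrkC, receptors for neurotrophins. Slices were frozen immediately after 3 rounds of theta-burst stimulation (each with 10 bursts spaced by 200 ms, and 4 pulses in a burst at 100 Hz) or after a sham procedure of the same duration. The 36 libraries were added to 32 samples where libraries carried the same mouse and stimulation labels, which gave 4 mice in each of the 4 vehicle groups, 3 WT mice with BD10-2 in each of the sham and stimulated groups, and 5 T41B mice with BD10-2 in each. The Thy1 cassette drives the transgene mainly in neurons, from a promoter other than that of App, and mice of the line keep their own App gene.

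APP is a membrane protein that is cut along competing routes. ADAM10, the main α-secretase of neurons, releases the ectodomain by a cut inside the amyloid-β sequence, whereas BACE1, the β-secretase, cuts at the start of that sequence. The membrane stub is then cut by γ-secretase, a complex of a presenilin (PSEN2 is a catalytic form), nicastrin (Ncstn), an APH1 protein and PEN-2 (Psenen), which sets free amyloid-β after a BACE1 cut. APLP1 and APLP2 are processed by the same enzymes but hold no amyloid-β sequence, and BACE2 is a close relative of BACE1 with little expression in neurons. Thy1 encodes a glycosylphosphatidylinositol-anchored protein of the surface of neurons and T cells.

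RefSeq promoter windows (GRCm38.p6) were matched for 6 of the 9 members, with 7 windows, and not for Thy1, Bace1 or Bace2. The windows of App, Aplp1 and Adam10 are shown because App and Aplp1 gave the strongest positive relation over samples among members with a window, and Aplp1 and Adam10 the strongest negative one. Each is the longest stretch outside exons of the 250 bases before the RefSeq start, 5′ to 3′ on the gene's strand, with the GC box GGGCGG, or its reverse complement CCGCCC, in capitals.
App, chr16:85173767-85173957, minus strand: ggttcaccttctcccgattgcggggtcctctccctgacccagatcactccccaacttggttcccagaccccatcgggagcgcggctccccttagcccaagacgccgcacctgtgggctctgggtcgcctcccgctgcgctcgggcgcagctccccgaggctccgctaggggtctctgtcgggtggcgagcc
Aplp1, chr7:30445583-30445832, minus strand: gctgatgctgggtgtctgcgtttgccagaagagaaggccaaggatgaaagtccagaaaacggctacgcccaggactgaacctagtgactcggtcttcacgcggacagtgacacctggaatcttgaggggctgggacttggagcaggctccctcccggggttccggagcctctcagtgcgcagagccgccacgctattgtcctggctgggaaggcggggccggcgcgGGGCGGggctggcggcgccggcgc
Adam10, chr9:70678732-70678981, plus strand: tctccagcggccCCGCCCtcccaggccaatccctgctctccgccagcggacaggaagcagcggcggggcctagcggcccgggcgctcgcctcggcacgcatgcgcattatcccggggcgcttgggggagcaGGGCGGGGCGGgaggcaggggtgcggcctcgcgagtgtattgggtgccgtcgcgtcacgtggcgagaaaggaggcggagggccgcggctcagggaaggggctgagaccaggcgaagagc
The App stretch ends 59 bases before the RefSeq start. It held 0 GC boxes in 191 bases, with a GC content of 69.6% and 16 CpG. Aplp1 held 1 in 250 bases (66.0% GC, 20 CpG), and Adam10 held 3 (74.0% GC, 29 CpG), of which a pair overlap in 1 run. Aplp2 held 3 in 250 bases. The first Psen2 window held 2 in 128 bases and the second 0 in 250, and the Ncstn window held 0 in 50. Of the 32851 windows of 250 bases in the table, 32.7% held GGGCGG on either strand, 33.8% held CCAAT and 12.4% held TATAAA, and the median GC content was 52.4% with a median of 6 CpG. CCAAT occurred 2 times each in the Aplp2 and Adam10 windows and TATAAA in none of the 7.

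Levels are in CPM (edgeR's library-size-scaled counts with TMM factors), as mean ± SD over mice, and per kilobase of the longest APPRIS principal transcript (GENCODE M21, GRCm38) where genes are compared with each other. In sham slices of vehicle-treated WT mice, App was the most abundant member per length at 391 ± 40.3 CPM per kb (SD, n = 4). Aplp1 followed at 342 ± 51.9, Thy1 at 209 ± 23.5 and Aplp2 at 92.0 ± 4.46 CPM per kb. The proteases lay lower, at 15.6 ± 1.52 CPM per kb for Bace1, 14.3 ± 1.24 for Adam10 and 13.7 ± 0.459 for the subunit Ncstn, 3 neighbours whose values overlapped within their SDs. Psen2 had 4.43 ± 0.898 CPM per kb, and Bace2 0.154 ± 0.0847. App and Aplp1 also lay within their SDs of each other. Counts in a single sample ran from 14297 to 59253 for App but only from 8 to 74 for Bace2, so Bace2 has the least precise values.

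The genes lie at chr9:44043384-44048579 (Thy1, plus strand), chr16:84949685-85173766 (App, minus), chr7:30434982-30445535 (Aplp1, minus), chr9:31149557-31211815 (Aplp2, minus), chr9:45838580-45864399 (Bace1, plus), chr16:97356742-97442936 (Bace2, plus), chr1:180227004-180263438 (Psen2, minus), chr9:70678997-70780229 (Adam10, plus) and chr1:172066013-172082795 (Ncstn, minus). Bace1 shares 975 exonic bases with Rnf214, a gene of the opposite strand, 951 with Gm49338 and 135 with the antisense transcript Gm16536. Ncstn shares 195 exonic bases with Copa, and App shares 113 with the antisense transcript Gm49227. The libraries were stranded, but the strand setting of the counting is not given in the sources used here, so reads from these overlaps may have been counted under either gene. The sources used here also do not say how reads from the human APP sequence or from the cassette were handled, so the rows of mouse App and Thy1 may hold some.

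The total count per library ran from 11597555 to 28125842, and mitochondrial genes took 2.0% to 5.4%. Markers of hippocampal neurons (Prox1, Wfs1, Neurod6 and Spink8) summed to between 224.5 and 486.2 CPM in every sample, and 0 of the 4 was at 0 in any group. Choroid plexus markers (6 genes) reached 1176 CPM in stimulated slices of vehicle-treated WT mice and 513 CPM in sham slices of vehicle-treated T41B mice, against 15.41 to 19.99 CPM in sham slices of vehicle-treated WT mice. Their part in the results was not tested.

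The genotype comparison asked which members differ between T41B and WT mice within each treatment and stimulation. Genotype was partly confounded with batch, as 5 of 8 batches held both genotypes, batch E only WT mice and batches G and H only T41B mice. With vehicle only batches A and C held both, with 1 mouse of each genotype in each. Thy1 was higher in T41B mice in all 4 comparisons, by 4.68 to 5.56-fold, and the other 8 members were not called in any. App, the gene whose human form the transgene encodes, was close to equal in both genotypes. In each of the 4 comparisons 1 of 9 members was called (edgeR quasi-likelihood test, adjusted p under 0.05), where 6.24% (vehicle, sham), 5.79% (vehicle, stimulated), 5.45% (BD10-2, sham) and 10.6% (BD10-2, stimulated) of all 19478 genes were called.

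Thy1 was 306.2, 365.8, 374.2 and 403.1 CPM in sham slices of the 4 vehicle-treated WT mice, and 1034, 1679, 1968 and 2099 CPM in those of the T41B mice. In stimulated slices it was 281.5, 303.0, 338.2 and 384.0 CPM in WT and 1054, 1486, 2005 and 2506 CPM in T41B mice. With BD10-2, sham slices held 328.2, 332.6 and 374.0 CPM in WT and 1044, 1517, 1939, 2168 and 2251 CPM in T41B mice. Stimulated slices with BD10-2 held 253.4, 278.7 and 329.3 CPM in WT and 1468, 1546, 1593, 1637 and 1739 CPM in T41B mice. The lowest T41B sample lay above the highest WT sample in every comparison, and groups did not overlap for 9.58%, 11.1%, 17.7% and 14.8% of all genes. The log2 fold changes were 2.23 (SE 0.22, adjusted p = 1.59e-07), 2.43 (SE 0.23, adjusted p = 4.4e-08), 2.37 (SE 0.25, adjusted p = 2.79e-07) and 2.48 (SE 0.25, adjusted p = 1.01e-07) in the order above, by edgeR. Within the 7 combinations of batch and stimulation that held both genotypes, T41B exceeded WT in 7 of 7, by 1.496 to 2.71 on the log2(CPM + 1) scale. The smallest differences, 1.496 and 1.637, came from batch A, which held 1 mouse of each genotype.

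**Figure D1:**
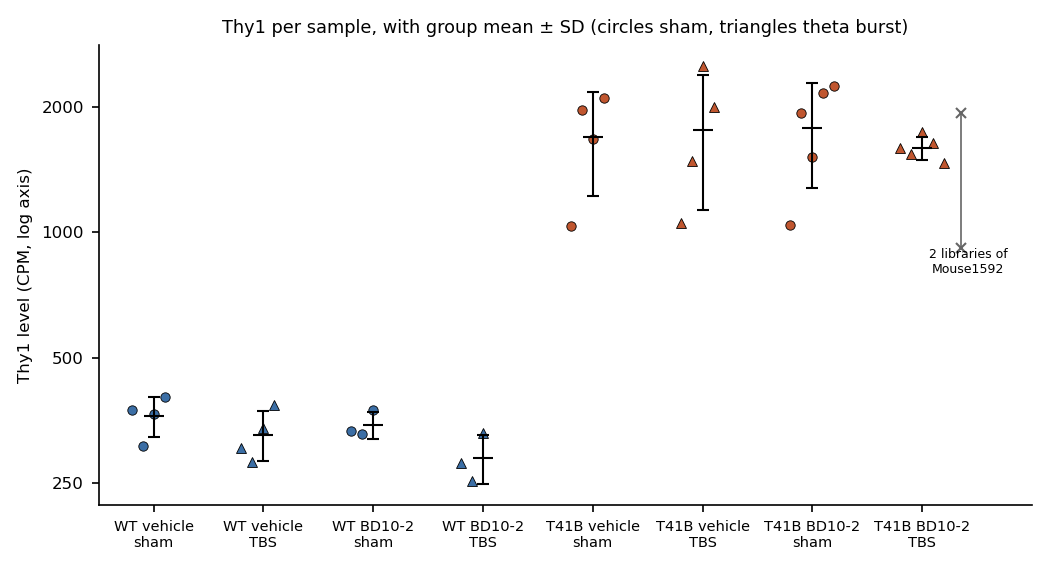
Thy1 level in CPM (log axis) for each of the 32 samples in the 8 groups, with group mean ± SD; crosses show the 2 libraries behind the stimulated sample of Mouse1592. Every T41B sample (1034 to 2506 CPM) lies above every WT sample (253.4 to 403.1 CPM).

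Thy1 was 1695 ± 474.5 CPM (SD, n = 4) in sham T41B slices with vehicle. Its coefficient of variation was 35.7% in stimulated T41B slices with vehicle, 28.1% in sham T41B slices with BD10-2, and 7.32% to 13.7% in the 4 WT groups. In stimulated T41B slices with BD10-2 it was 6.34%, a value that depends on the 2 libraries of Mouse1592: it was 21.9% with the one low in Thy1 alone and 9.20% with the other, which lies within the range of the WT groups. Mouse1510 held 1034 CPM in its sham slice and 1054 CPM in its stimulated slice. Mouse1557 held 1017 and 1077 CPM in 2 libraries of its sham slice. In contrast, the 2 libraries labelled as the stimulated slice of Mouse1592 held 917 and 1937 CPM, a 2.11-fold difference, and its sham slice held 2251 CPM. The same library with low Thy1 held 13.5 CPM of Cst7 against 37.0 CPM in the other, 6.86 against 20.5 CPM of Itgax, and 5.22 against 18.6 CPM of Clec7a, which are genes of microglia near plaques. The other 8 members differed at most 1.22-fold between these libraries, with App at 1174 and 1135 CPM. Same-label libraries of Mouse1557 also differed in Cst7, with 19.01 and 37.85 CPM, while their Thy1 differed 1.06-fold. Whether 1 of the 2 labels is wrong cannot be told from these values, so the summed sample of 1468 CPM may not be a single slice of this mouse. Without the low library of Mouse1592, the Thy1 log2 fold change in stimulated slices with BD10-2 was 2.56.

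Across the 8 T41B mice with both slices, Thy1 in the sham slice and in the stimulated slice had a Pearson r of 0.51 (exact permutation p = 0.194, 0.292 after adjustment over 3 relations) and a Spearman rho of 0.143 (p = 0.752, exact permutation; adjusted 0.752). Without Mouse1510 and Mouse1564, the mice farthest from the median, r was -0.669, so the relation rested on them. Thy1 and App in sham slices of the 9 T41B mice had r = 0.258 (exact permutation p = 0.511, adjusted 0.511) and rho = 0.7 (exact permutation p = 0.0433, adjusted 0.13), and r = 0.422 without Mouse1510 and Mouse1557. Thy1 and the mean level of 6 microglia markers had r = 0.577 (exact permutation p = 0.126, adjusted 0.292) and rho = 0.383 (exact permutation p = 0.312, adjusted 0.469), and r = 0.196 without the same mice. None of the 3 relations passed the adjusted threshold, and the T41B groups differ in batch and treatment.

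The genes around Thy1 on chromosome 9 gave 1 call over the 4 genotype comparisons. Of 27 annotated genes that start within 250 kb of the Thy1 start, 15 were tested. Between genotypes 0, 0, 0 and 1 of them were called, where 6.24%, 5.79%, 5.45% and 10.6% of all genes were called, and their median log2 fold changes were -0.10, 0.03, 0.22 and -0.06. The called gene was C1qtnf5, 63.9 kb from Thy1, at 8.39 CPM in T41B against 5.78 CPM in WT mice in stimulated slices with BD10-2 (log2 fold change 0.54, SE 0.16, adjusted p = 0.029, edgeR). Near App, Gm10791 was the only tested gene of 5, and it was not called between genotypes.

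App was 1098, 1132, 1153 and 1164 CPM in sham slices of vehicle-treated T41B mice, and 1139, 1173, 1235 and 1425 CPM in WT mice. Both sets overlapped, and the highest value was the WT mouse Mouse1524. The log2 fold change of App was -0.13 (95% interval -0.29 to 0.04, adjusted p = 0.362, edgeR). In the other 3 comparisons it was -0.07, -0.11 and -0.004, with 95% intervals that ended at 0.10, 0.06 and 0.17 on the log2 scale. No larger excess of the App row in T41B mice lay inside these intervals. Aplp1, an App homologue of neurons, had log2 fold changes of 0.01, -0.05, 0.08 and 0.01. Aplp2, the more widely expressed homologue, had -0.15, -0.09, -0.10 and -0.02, with an unadjusted p of 0.0353 and an adjusted p of 0.195 (edgeR) in the first.

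Among the proteases, Bace1 was 84.09, 93.24, 94.92 and 106.5 CPM in sham slices of vehicle-treated WT mice and 81.21, 85.35, 87.66 and 89.57 CPM in T41B mice. Its log2 fold change was -0.14, -0.10, -0.10 and -0.15 in the 4 comparisons, with edgeR adjusted p from 0.248 to 0.555. Adam10 (0.03, -0.11, -0.09 and -0.08), Psen2 (0.04, -0.07, 0.08 and 0.13) and Ncstn (0.03, 0.06, 0.11 and 0.19) had no call either. For Ncstn in stimulated slices with BD10-2 the unadjusted p was 0.0279 and the adjusted p 0.151.

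Bace2 was the member nearest to a call after Thy1. In sham slices with BD10-2 it was 0.783, 0.807 and 0.974 CPM in the 3 WT mice and 1.27, 1.87, 1.90, 1.91 and 2.20 CPM in the 5 T41B mice. These groups did not overlap, which held for 3 of 9 members here (Thy1, Bace2 and Aplp2) and for 17.7% of all tested genes. Its fitted level was 2.14-fold that of WT mice (95% interval of the log2 fold change 0.39 to 1.81, adjusted p = 0.0584, edgeR), so it was not called. It was called by DESeq2 (log2 fold change 1.11, adjusted p = 0.027), with only the 2 groups compared (adjusted p = 0.0151, edgeR), with the last same-label library only (1.14, adjusted p = 0.0415, edgeR) and without the low-Thy1 library of Mouse1592 (adjusted p = 0.0498, edgeR). Over the alternatives 4 or 5 of 36 genotype tests of members were called. With batch as a covariate the log2 fold change was 0.73 (adjusted p = 0.23, edgeR), and leaving out single mice moved the adjusted p to between 0.0326 and 0.199, with a call without Mouse1509, Mouse1522 or Mouse1592. In sham slices with vehicle, WT mice held 0.474, 0.937, 1.27 and 2.01 CPM and T41B mice 1.14, 1.63, 1.75 and 2.13 CPM, which overlapped (log2 fold change 0.49, adjusted p = 0.403, edgeR). In stimulated slices the log2 fold changes were 0.44 and 0.70. Within batches, Bace2 was higher in T41B in 6 of 7 combinations, by up to 0.69 on the log2(CPM + 1) scale. Astrocyte markers moved the same way, with median log2 fold changes of 0.31, 0.33, 0.45 and 0.51 and 2, 2, 2 and 5 of 5 called higher in T41B mice. They summed to 2385 to 3245 CPM in T41B and 1109 to 1322 CPM in WT sham slices with BD10-2, with 0 markers at 0 in any group. There the sum differed more than the median marker did. Neuron markers had median log2 fold changes of -0.31, -0.34, -0.33 and -0.24 in the 4 genotype comparisons and 1, 2, 2 and 0 of 6 called lower, and summed to 2472 to 3258 CPM in T41B and 3198 to 3875 CPM in WT sham slices with vehicle. The part of these markers in the values of Bace2 and of the other members between genotypes was not tested. In bulk tissue a change in the number of cells of a type and a change in RNA per cell cannot be told apart.

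**Figure D2:**
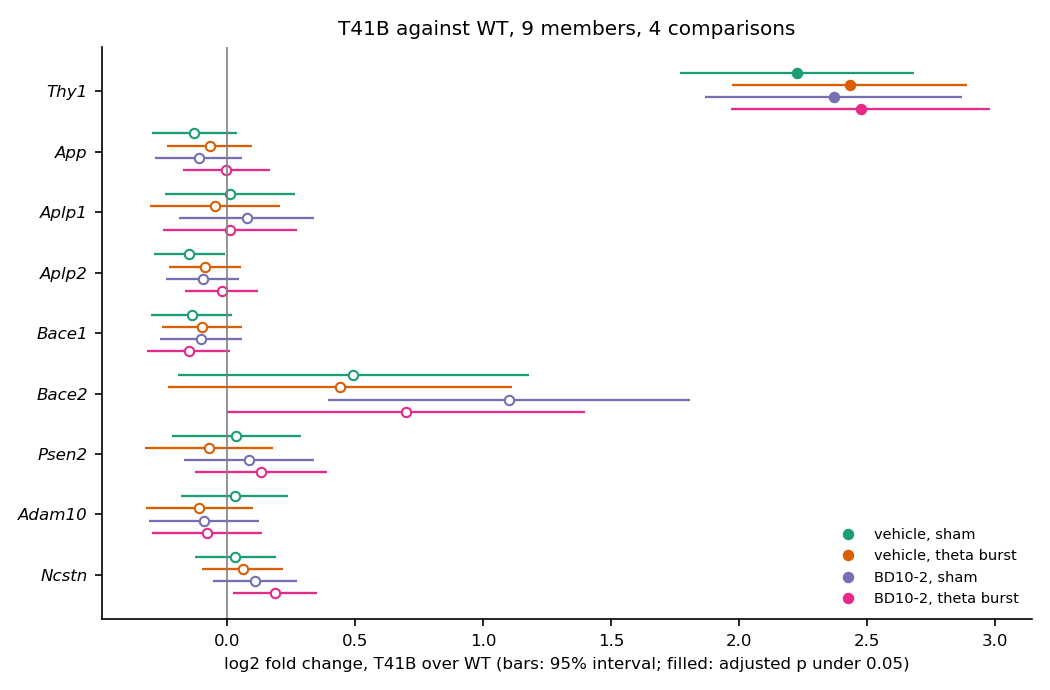
Log2 fold change of T41B over WT for the 9 members in 4 comparisons, with 95% intervals from edgeR; filled points are called at an adjusted p under 0.05. Thy1 lies between 2.23 and 2.48, and the intervals of the other members include 0 except for Aplp2 in sham slices with vehicle, Bace2 in sham slices with BD10-2 and Ncstn in stimulated slices with BD10-2.

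Theta-burst stimulation was compared with sham within each genotype and treatment. Every one of the 14 mice with both slices held less Bace1, the β-secretase, in its stimulated slice, and Adam10, the α-secretase, was lower in 13 of 14. Among all tested genes 5.34% were lower in 14 of 14 mice and 12.5% in 13 or more. The differences were small, and 1 call passed the threshold among 36 tests of members, for Bace1 in T41B mice with BD10-2, which fell by 0.19 on the log2 scale. By comparison 0 of 9 members were called in WT vehicle, 0 of 9 in WT BD10-2, 0 of 9 in T41B vehicle and 1 of 9 in T41B BD10-2, where 12.3%, 8.87%, 21.5% and 22.9% of all genes were called. At an unadjusted p under 0.05 there were 1, 0, 1 and 1 members.

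In T41B mice with BD10-2, Bace1 was 77.81, 82.11, 84.84, 85.61 and 92.47 CPM in sham slices and 66.04, 74.28, 74.57, 75.32 and 80.14 CPM in stimulated slices. The groups overlapped by 1 stimulated sample, that of Mouse1592 (78.6 and 82.0 CPM in its 2 libraries), which lay above the lowest sham sample. The log2 fold change was -0.19 (SE 0.07, adjusted p = 0.0434, edgeR). In vehicle-treated WT mice, Bace1 was 84.09, 93.24, 94.92 and 106.5 CPM in sham slices against 79.28, 80.81, 82.48 and 86.21 CPM in stimulated slices. That is a log2 fold change of -0.20 (SE 0.08, adjusted p = 0.0782, edgeR). In vehicle-treated T41B mice it was 81.21, 85.35, 87.66 and 89.57 CPM in sham and 69.07, 70.68, 81.50 and 85.64 CPM in stimulated slices (log2 fold change -0.16, SE 0.08, adjusted p = 0.129, edgeR). In WT mice with BD10-2 the value was -0.14 (adjusted p = 0.363, edgeR), with 88.64, 88.95 and 94.72 CPM in sham and 77.70, 80.76 and 88.37 CPM in stimulated slices. There Bace1 and Adam10 were the 2 of 9 members whose groups did not overlap, against 32.9% of all genes. The call in T41B mice with BD10-2 was lost without any 1 of 10 mice (Mouse1509, Mouse1522, Mouse1557, Mouse1563, Mouse1564, Mouse1565, Mouse1570, Mouse1571, Mouse1572 and Mouse1590, with edgeR adjusted p up to 0.162 and log2 fold changes from -0.22 to -0.16) and without the low-Thy1 library of Mouse1592 (-0.18, adjusted p = 0.0529, edgeR). It was also lost with no filter on low counts, with the last same-label library only and with only the 2 groups compared.

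With the mouse as a replicate block, which rests on the 14 mice with both slices and takes nothing from the other 4, Bace1 was called in vehicle-treated WT mice (log2 fold change -0.20, adjusted p = 0.0426, edgeR) and in T41B mice with BD10-2 (-0.19, adjusted p = 0.0499). The block also gave a call for Adam10 in vehicle-treated T41B mice (-0.20, SE 0.06, adjusted p = 0.0264, edgeR), so that 3 of 36 tests passed against 1 without the block. The number of all genes called moves with the fit too. In WT mice with BD10-2 it was 1286 of 19478 with the block against 1727 without, and the other settings are not given here. The count of 3 is thus not a result about the members. Over the 14 mice the mean paired difference on the log2(CPM + 1) scale was -0.18 for Bace1, with a range from -0.37 to -0.03, and -0.14 for Adam10, with a range from -0.32 to 0.14. The single mouse with more Adam10 in the stimulated slice was Mouse1509, at 66.31 against 60.12 CPM. Adam10 in vehicle-treated T41B mice was 56.28, 64.67, 72.51 and 74.30 CPM in sham slices and 49.03, 51.67, 65.62 and 66.99 CPM in stimulated slices. The sets overlapped, and each of the 4 mice was lower after stimulation.

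**Figure D3:**
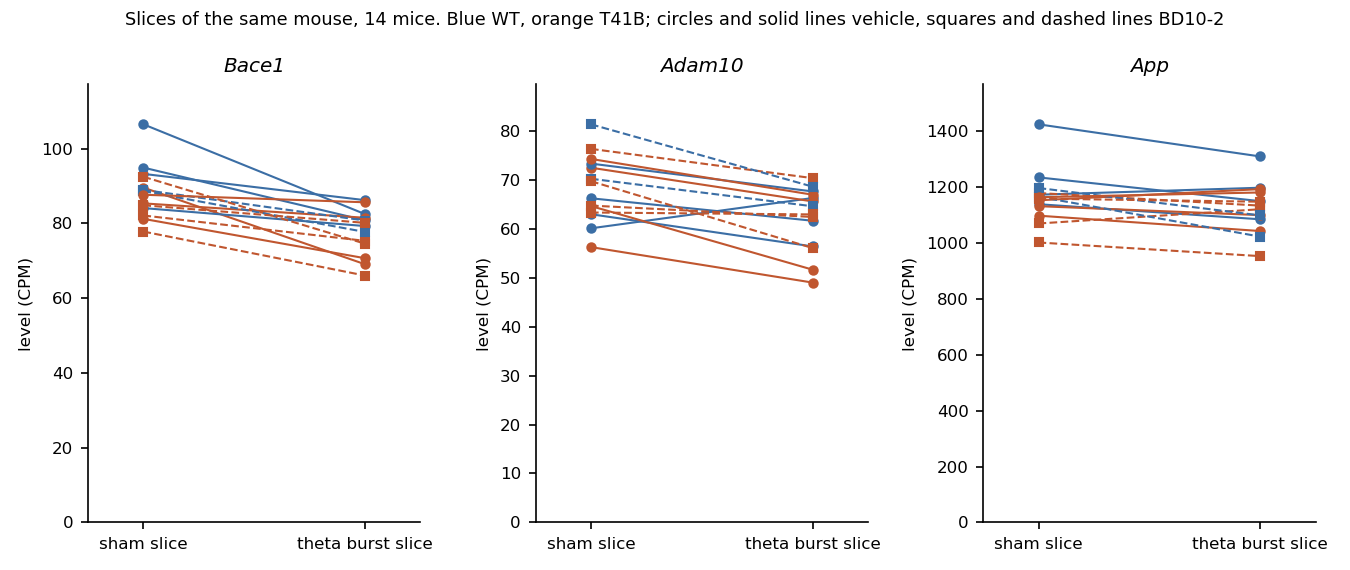
Level in CPM of Bace1, Adam10 and App in the sham and the theta-burst slice of the same mouse, with a line per mouse (14 mice). Bace1 lines slope down in 14 of 14 mice, Adam10 lines in 13 and App lines in 10.

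Several measurements moved together with Bace1. The neuron markers (6 genes) had median log2 fold changes of -0.20, -0.32, -0.23 and -0.17 after stimulation in vehicle WT, BD10-2 WT, vehicle T41B and BD10-2 T41B, with 1, 2, 0 and 2 of 6 called lower and none called higher. Their summed level was 3198 to 3875 CPM in sham and 2833 to 3228 CPM in stimulated slices of vehicle-treated WT mice, and 2512 to 2942 against 1854 to 2722 CPM in T41B mice with BD10-2, and 0 of 6 was at 0 in any group. Microglia markers fell in 5, 6, 6 and 6 of 6 in the same order (medians -1.37, -1.65, -1.86 and -1.36), with sums of 199.7 to 254.3 CPM in sham and 81.59 to 128.5 CPM in stimulated slices of vehicle-treated WT mice. Of 5 astrocyte markers 3, 0, 3 and 3 rose (medians 0.38, 0.27, 0.39 and 0.40), with sums of 1003 to 1212 CPM in sham and 1452 to 1785 CPM in stimulated slices of the same WT mice. Choroid plexus markers were called higher in 6 of 6 in vehicle-treated WT mice, and 0 of 6 were called in the other 3 comparisons. Their sum in these WT mice was 13.46 to 1176 CPM in stimulated and 15.41 to 19.99 CPM in sham slices. The lowest stimulated slice thus lay below every sham slice, so the rise was not shared by all slices. These shifts accompany the Adam10 differences too. Rnf214, which shares 975 exonic bases with Bace1 on the opposite strand, fell in T41B mice with vehicle (log2 fold change -0.22, adjusted p = 0.0228, edgeR) and with BD10-2 (-0.22, adjusted p = 0.00954), and was -0.06 and -0.07 in WT mice, where it was not called. Scaling by library size alone gave Bace1 differences of -0.27 in vehicle-treated WT mice and in T41B mice with BD10-2, and under that scaling the median of all genes in the latter was -0.12, against -0.04 with TMM. The part of cell content, of the overlapping gene and of scaling in the Bace1 and Adam10 differences was not tested.

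The other members had no call after stimulation. App was lower in the stimulated slice of 10 of 14 mice, with log2 fold changes of -0.07, -0.11, -0.01 and 0.00. Aplp1 ranged from -0.05 to 0.04 and Aplp2 from -0.09 to 0.00. Thy1 was lower in 11 of 14 mice, but its differences ranged from -0.62 in Mouse1592 to 0.58 in Mouse1553, and the 4 tests gave -0.15, -0.26, 0.06 and -0.16. The value of Mouse1592 depends on its 2 discordant libraries, and was -1.29 with the low-Thy1 library alone and -0.22 with the other. The lowest value among the other mice was -0.41, in Mouse1551. Ncstn was lower in 11 of 14 mice, with 39.41 and 39.42 CPM in the slices of Mouse1522 taken as equal (-0.05, -0.14, -0.02 and -0.06), Psen2 in 9 (0.01, 0.01, -0.10 and 0.06) and Bace2 in 7, with 0.9366 and 0.9367 CPM in Mouse1513 taken as equal (0.04, 0.29, -0.01 and -0.12).

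A row annotated as an antisense transcript inside App was called after stimulation. Gm10791, at chr16:84972214-84979451 on the plus strand, lies within the App locus and shares 0 exonic bases with App. It was 0.126 to 0.296 CPM in sham and 0.799 to 1.67 CPM in stimulated slices of vehicle-treated WT mice. In T41B mice with BD10-2 it was 0.212 to 0.570 CPM in sham and 1.15 to 2.40 CPM in stimulated slices. It rose in all 4 stimulation comparisons, with log2 fold changes of 2.33 (SE 0.39, adjusted p = 7.62e-05), 1.63 (SE 0.38, adjusted p = 0.0053), 1.74 (SE 0.34, adjusted p = 0.000333) and 2.18 (SE 0.30, adjusted p = 1.99e-06) by edgeR. As the strand setting of the counting is not given, reads from App introns may have been counted under it, which was not tested. Its level is near 1 CPM, against a mean of 1149 CPM for App over all samples.

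**Figure D4:**
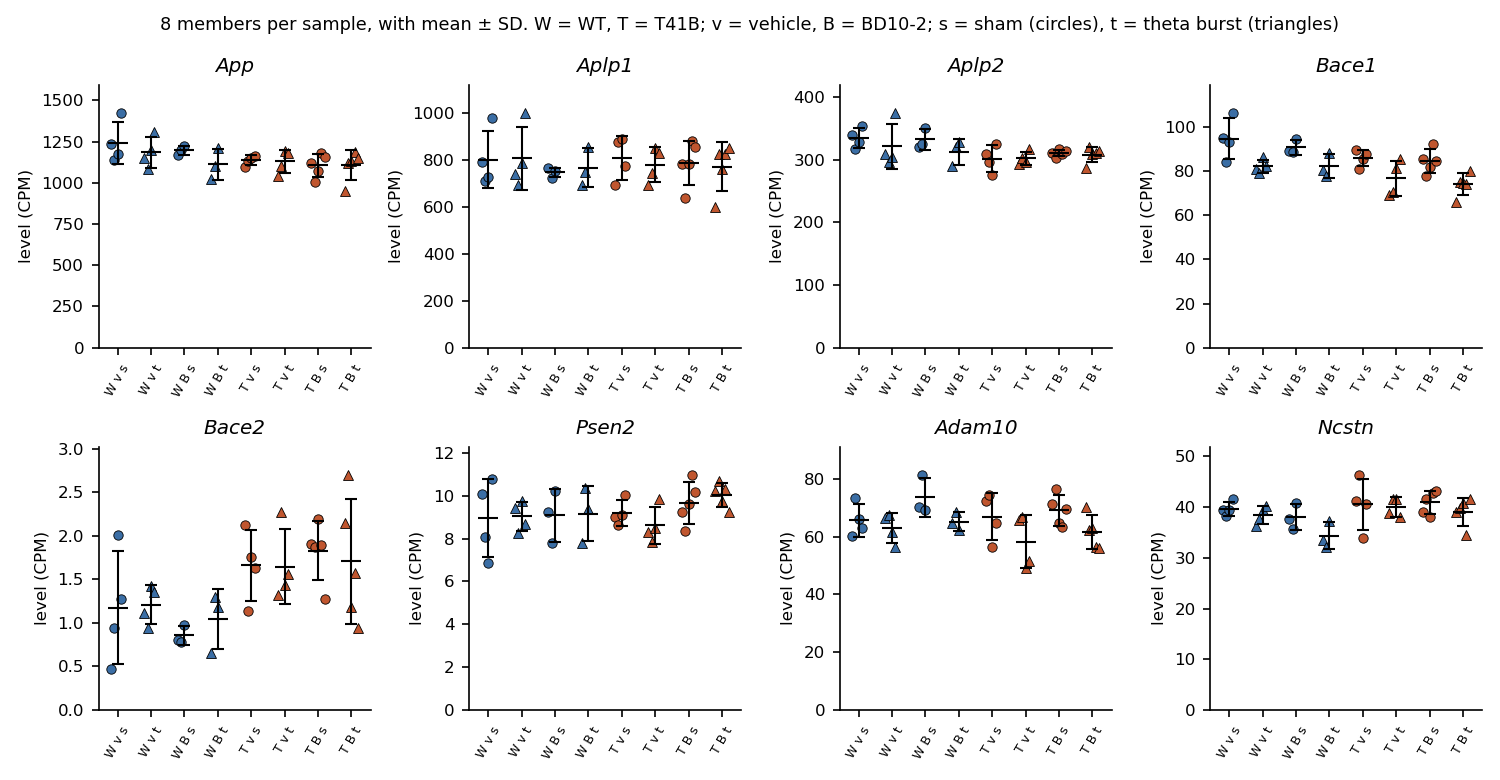
Level in CPM of the 8 members other than Thy1 in each sample of the 8 groups, with mean ± SD; every axis starts at 0. App, Aplp1 and Aplp2 are level across groups, Bace1 is lowest in stimulated T41B slices, and Bace2 lies between 0.474 and 2.70 CPM.

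BD10-2 was compared with vehicle within each genotype and stimulation, and no member was called. The edgeR test called 0 of 9 members in each of the 4 comparisons, and 0% of all genes in sham WT, 0% in stimulated WT, 0% in sham T41B and 0% in stimulated T41B slices. At an unadjusted p under 0.05 there were 0 members and 374, 1093, 431 and 759 genes, and DESeq2 and limma-voom also called 0 members. Of all genes DESeq2 called 25 in stimulated WT slices and 0 in the other 3 comparisons, and limma-voom called 0 in all 4. Leaving out Mouse1522 or Mouse1524 gave 21 and 26 calls by edgeR in stimulated WT slices, so the 0 there rests on single mice. The largest member differences were -0.46 for Bace2 in sham WT slices (95% interval -1.23 to 0.30), 0.22 for Psen2 in stimulated T41B slices (-0.02 to 0.46) and -0.22 for Bace2 in stimulated WT slices. Psen2 was 7.84, 8.32, 8.47 and 9.83 CPM in stimulated T41B slices with vehicle and 9.22, 9.78, 10.2, 10.3 and 10.7 CPM with BD10-2, so 1 vehicle sample lay above 2 of the BD10-2 samples. App differed by -0.09 to -0.03 and Bace1 by -0.06 to 0.00. Thy1 in T41B mice differed by 0.07 in sham slices (95% interval -0.34 to 0.49) and by -0.14 in stimulated slices (-0.56 to 0.27), so changes within about those bounds could not be resolved. Each of the 8 batches in the labels held a single treatment, so treatment and batch cannot be told apart.

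Interactions asked whether the effect of genotype, treatment or stimulation on a member differed between settings of the other factors. The edgeR test called 0 of 54 member tests over the 6 interactions, and 0 members had an unadjusted p under 0.05, against 337 to 1683 of all genes. DESeq2 called 0 to 20 and limma-voom 0 to 5 of all genes, and edgeR called 79 for genotype by stimulation with BD10-2 without Mouse1592. For all genes the calls were 0% for genotype by stimulation with vehicle, 0% with BD10-2, 0% for genotype by treatment in sham slices, 0% in stimulated slices, 0% for treatment by stimulation in WT and 0% in T41B mice. DESeq2 and limma-voom called 0 of the 54 as well. The Bace1 difference after stimulation was therefore not shown to differ between genotypes or treatments.

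Another 44 genes of the pathway were listed by role, from further γ-secretase partners to genes listed under the degradation of amyloid-β, and 43 were tested (Mep1b, a meprin subunit, had at most 2 counts in a sample). Between genotypes 2, 3, 2 and 4 of the 43 were called in the order above, which is near the 6.24%, 5.79%, 5.45% and 10.6% of all genes, with list medians of -0.03, -0.04, -0.03 and 0.03 against -0.03 to 0.01 for all genes. Lgmn, a lysosomal protease also known as δ-secretase, was 63.1 to 77.2 CPM in sham slices of vehicle-treated WT mice and 81.0 to 136.6 CPM in T41B mice (log2 fold change 0.71, SE 0.13, adjusted p = 0.000431, edgeR). It was higher in T41B mice in all 4 comparisons, by 0.48 to 0.88. Cst3, the cysteine protease inhibitor cystatin C, which binds amyloid-β, was also higher in all 4, by 0.59 to 0.84, with 462.7 ± 69.2 CPM in WT and 830.1 ± 185.2 CPM in T41B mice (SD, n = 4 each) in sham slices with vehicle. Notch1, a receptor cut by ADAM10 and γ-secretase, was higher in T41B mice in stimulated slices with vehicle (0.66) and with BD10-2 (0.60). Gga3, an adaptor that takes BACE1 to lysosomes, was lower in the latter (log2 fold change -0.32, SE 0.09, adjusted p = 0.0115, edgeR). With batch as a covariate, Lgmn in stimulated slices with vehicle (0.25, adjusted p = 0.159) and Cst3 with vehicle in sham (0.51, adjusted p = 0.0576) and stimulated slices (0.31, adjusted p = 0.195) were no longer called. Leaving out 1 mouse ended a call for Cst3 in stimulated slices with vehicle (Mouse1509, Mouse1513, Mouse1522 or Mouse1551; 0.50 to 0.82) and in sham slices with BD10-2 (Mouse1590; 0.62 to 0.72), for Lgmn in stimulated slices with vehicle (Mouse1509, Mouse1513 or Mouse1522; 0.42 to 0.61) and for Gga3 (Mouse1565 or Mouse1571; -0.38 to -0.26), where the ranges are over all 18 mice left out.

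Microglia and astrocyte markers moved with these genotype differences. Of 6 microglia markers 5, 2, 4 and 6 were called higher in T41B mice, and their summed level in sham slices with vehicle was 199.7 to 254.3 CPM in WT and 395.2 to 675.7 CPM in T41B mice. Astrocyte markers summed to 1003 to 1212 CPM in WT and 2095 to 3085 CPM in T41B mice there. Their median log2 fold change was 0.31, with 2 of 5 called higher, so the sum differed more than the median marker did. The 6 and 5 markers were all detected in every group, and their part in the Lgmn, Cst3 and Notch1 differences was not tested.

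After stimulation 5, 4, 11 and 9 of the 43 were called (2, 1, 6 and 5 higher) in vehicle WT, BD10-2 WT, vehicle T41B and BD10-2 T41B. These counts are near the share called among all genes (12.3%, 8.87%, 21.5% and 22.9%), and the list medians of 0.01, -0.03, -0.04 and 0.00 were near those of all genes (-0.01, -0.01, -0.05 and -0.04). Among other proteases that can cut APP, Adam9 rose in 3 comparisons (0.34, 0.53 and 0.49) and was 0.26 in WT mice with BD10-2, where it was not called. Adam17 rose in both vehicle settings, by 0.41 in WT and 0.46 in T41B mice. Lgmn was called after stimulation only in vehicle-treated T41B mice, where it fell by 0.46. Its mean was also lower, without a call, in stimulated WT slices with vehicle (57.75 against 67.81 CPM in sham) and BD10-2 (52.01 against 67.03 CPM). The same held in T41B slices with BD10-2 (95.79 against 113.0 CPM). Microglia markers were called lower in 5, 6, 6 and 6 of 6 in the order above. In vehicle-treated T41B mice their sum was 183.3 to 241.7 CPM after stimulation against 395.2 to 675.7 CPM in sham slices. Of the regulators, Itm2a, a BRICHOS-family membrane protein, fell in all 4 comparisons (-1.13, -1.25, -0.86 and -1.09), from 8.55 to 12.1 CPM in sham to 2.70 to 6.12 CPM in stimulated slices of vehicle-treated WT mice. Rtn3, a reticulon that binds BACE1, was called only in T41B mice with BD10-2, where it fell by 0.20. Its mean was also lower, without a call, in stimulated WT slices with vehicle (594.6 against 668.6 CPM in sham) and BD10-2 (543.9 against 641.8 CPM). The same held in T41B slices with vehicle (524.8 against 574.3 CPM). Of the cytoplasmic adaptors of APP, Apbb2 was called higher in T41B mice with vehicle (0.39) and BD10-2 (0.43), Apba3 with vehicle (0.54) and Apbb3 with BD10-2 (0.24). The Apbb2 mean was also higher, without a call, in stimulated WT slices with vehicle (86.64 against 73.22 CPM in sham) and BD10-2 (86.77 against 73.23 CPM). The Apba3 mean was higher there too (14.85 against 12.26 and 16.12 against 13.74 CPM). Single mice decided the calls of Adam9 (without Mouse1509, Mouse1513 or Mouse1524; 0.32 to 0.37) and Adam17 (without any 1 of the 4 mice; 0.38 to 0.44) in vehicle-treated WT mice, of Lgmn (without Mouse1551; -0.52 to -0.38), of Rtn3 (without any 1 of 6 mice: Mouse1557, Mouse1563, Mouse1564, Mouse1572, Mouse1586 and Mouse1590; -0.24 to -0.17) and of Apbb3 (without Mouse1564; 0.19 to 0.28). With the mouse as a block, Rtn3 (adjusted p = 0.0846) and Apbb3 (adjusted p = 0.0805, edgeR) were not called.

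Of 6 genes listed under the degradation of amyloid-β, which include the inhibitor Cst3, 0, 0, 1 and 1 were called higher and 0, 1, 2 and 0 lower after stimulation, in the same order. Ece1, an endothelin-converting enzyme that cleaves amyloid-β, was called higher in T41B mice, by 0.75 with vehicle and 0.64 with BD10-2. With vehicle it was 31.4 to 46.5 CPM in sham and 64.2 to 70.4 CPM in stimulated T41B slices. Its mean was also higher, without a call, in stimulated WT slices with vehicle (54.74 against 43.54 CPM in sham) and BD10-2 (55.91 against 42.82 CPM). Its relative Ece2 fell by 0.41 in vehicle-treated T41B mice. Mme, which encodes neprilysin, fell by 0.88 in vehicle-treated T41B mice and by 1.07 in WT mice with BD10-2, at a level of 1.08 to 4.06 CPM over these groups. Endothelial markers were called higher after stimulation in 2 of 4 in both T41B settings and in 1 of 4 in both WT settings. Their part in the Ece1 change was not tested. Neuron markers had median log2 fold changes of -0.20, -0.32, -0.23 and -0.17 after stimulation in the same order, and 3, 0, 3 and 3 of 5 astrocyte markers were called higher. The part of both in the Notch1, Scn2b and Chl1 changes that follow was not tested. Among further substrates of the same secretases, Notch1 rose in 3 comparisons (0.45, 0.91 and 0.70). Scn2b, a sodium channel subunit cut by BACE1, fell in all 4 (-0.42, -0.45, -0.31 and -0.38). Chl1, a neural adhesion molecule cut by BACE1, was called only in T41B mice with BD10-2, where it fell by 0.36. Its mean was also lower, without a call, in stimulated WT slices with vehicle (174.6 against 218.5 CPM in sham) and BD10-2 (162.8 against 210.6 CPM). The same held in T41B slices with vehicle (146.5 against 179.4 CPM). Aph1b, a γ-secretase subunit, was called only in vehicle-treated WT mice, where it fell by 0.36. Its mean was also lower, without a call, in stimulated WT slices with BD10-2 (18.87 against 24.99 CPM in sham). The same held in T41B slices with vehicle (17.64 against 20.57 CPM) and BD10-2 (16.76 against 20.01 CPM). The split of reads between Aph1b and its close copy Aph1c was not tested. Calls that ended when 1 mouse was left out were those of Ece2 (Mouse1551; -0.50 to -0.23), Mme in WT mice (Mouse1590; -1.30 to -0.79), Notch1 in WT mice (Mouse1565, Mouse1571, Mouse1586 or Mouse1590; 0.40 to 0.54), Chl1 (Mouse1557, Mouse1564, Mouse1572 or Mouse1590; -0.42 to -0.31), Aph1b (any 1 of 7 mice: Mouse1509, Mouse1513, Mouse1522, Mouse1524, Mouse1565, Mouse1586 and Mouse1590; -0.42 to -0.28) and Scn2b in WT mice with vehicle (Mouse1509; -0.44 to -0.37) and with BD10-2 (Mouse1565, Mouse1571 or Mouse1590; -0.51 to -0.40) and in vehicle-treated T41B mice (any 1 of 8 mice: Mouse1509, Mouse1510, Mouse1522, Mouse1551, Mouse1565, Mouse1571, Mouse1586 and Mouse1590; -0.39 to -0.22). With the mouse as a block, Mme (adjusted p = 0.0951) and Notch1 (0.0835) in WT mice with BD10-2 and Chl1 (0.0731) were not called by edgeR. Of the 43 genes 0 were called for treatment or in an interaction by edgeR. A call in 1 setting and none in another therefore does not show a difference between the settings.

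**Figure D5:**
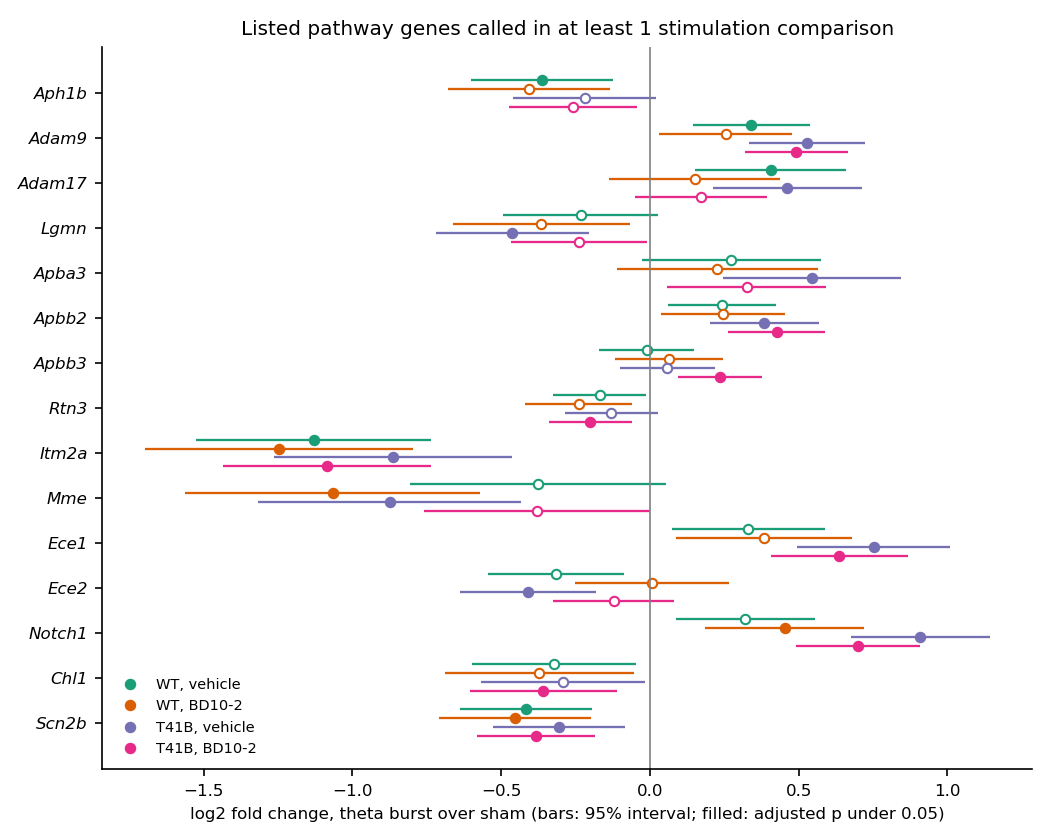
Log2 fold change of theta burst over sham for the 15 listed pathway genes called in at least 1 of the 4 stimulation comparisons, with 95% intervals from edgeR; filled points are called. Itm2a and Scn2b lie below 0 in all 4 settings, and Adam9, Ece1 and Notch1 lie above 0 in all 4.

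Across all 32 samples, after the mean of each group was removed, App and Aplp1 varied together, with a Pearson r of 0.919 on the log2(CPM + 1) scale. App and Bace1 had r = 0.786, and App and Aplp2 had r = 0.664. Adam10 ran the other way, with r = -0.701 against Bace1, -0.687 against Aplp1 and -0.651 against App. Bace1 had r = 0.664 and Adam10 r = -0.621 with the neuron markers. These are descriptions over slices that share mice and batches, so the samples are not independent. Among 11988 genes averaging at least 5 CPM, the genes most like App were Lrrc4b (r = 0.931), Aplp1 and Nrxn2 (0.906). Those most like Aplp1 were Mapk8ip1 (0.947), Emc10 (0.930) and Mpnd (0.928). Bace1 was most like P4htm (0.887), Pomgnt2 (0.881) and Tmem179 (0.880), and Adam10 most like Rock1 and Rif1 (both 0.907) and Gk5 (0.903). The most alike gene was Rarg for Psen2 (r = 0.835), Arsb for Ncstn (0.761), Ednrb for Bace2 (0.733) and Psmd9 for Thy1 (0.725).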

How the data were processed

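Total RNA (200 ng) of hippocampal slices was depleted of ribosomal RNA and made into stranded libraries with the KAPA RiboErase kit, per the labels' protocols. The table the authors deposited holds expected counts from RSEM, 1 row per gene, with no scaling between libraries. In it 5.7% of the values hold decimals. The submitters' processing notes name cutadapt 1.8.1, STAR 2.7.6a, RSEM 1.3.1, featureCounts 1.6 and SAMtools 1.11 with GRCm38.p6 and mm10, without roles. The annotation release and strand setting are not given in the sources used here, and RSEM shares reads between similar transcripts. Symbols matched 55154 of 55421 identifiers.

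Expected counts of libraries with the same labels (4 pairs) were added and rounded. Genes were kept with filterByExpr (minimum count 10, 8 groups), scaled by TMM (factors 0.91 to 1.063) and tested with edgeR 4.0.16's quasi-likelihood F test, 1 coefficient per group, in R 4.3.3, with Benjamini-Hochberg adjustment over all 19478 genes. The fit was tested on simulated counts. A gene was called at an adjusted p under 0.05. The depth of 11597555 to 28125842 counts per library sets the counting error, which matters most for Bace2. P-values of this fit measure the spread between samples of a group, each from a different mouse, pooled over the 8 groups. The fit treated the sham and stimulated slices of 14 mice as independent. P-values with the mouse as a block measure the spread of differences within mice. Named genes were all 9 members, the called genes of a list of 44 pathway genes, the genes starting within 250 kb of Thy1 and App, and the 3 genes most like each member, of which those for Aplp2 are not reported here and 1 each is given for Psen2, Ncstn, Bace2 and Thy1. The members and lists were chosen with earlier results of these data known, so no pattern here is independent support for them. Slices of the same mouse are paired by the mouse labels. Their deviations from group means correlated with a mean r of 0.29 over 14 mice (0.053 to 0.552), against -0.078 for 52 pairs of different mice.

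Alternatives were DESeq2 1.42.0, limma-voom (limma 3.58.1) with the mouse as a random effect (correlation 0.339), library-size scaling, no filter on low counts, the first or last same-label library only, each of 18 mice left out, a fit of the groups compared, the mouse as a replicate block, and batch as a covariate. Leaving out the low-Thy1 library of Mouse1592 was added after the data were seen.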

Additional observations from a re-analysis of the deposited data

Results flagged for a closer look

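App in stimulated T41B slices with BD10-2 was 953 CPM in Mouse1563, below the other 4 mice at 1121 to 1188 CPM. The gap to the nearest sample was 0.716 of the group's range, above the 95% critical value of 0.71 for 5 samples. It was the single flag among 54 combinations of member and group with 4 or 5 samples, where chance flags about 1 in 20. The sham slice of the same mouse held 1002 CPM, the lowest of its group.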

How the results depend on the processing

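Member calls between genotypes numbered 4 of 36, and 5 with DESeq2, with only the 2 groups compared, with the last same-label library only and without the low-Thy1 library of Mouse1592. Thy1 was called higher in T41B mice in all 4 comparisons under all 9 alternatives (log2 fold change 1.87 to 2.56) and without any of the 18 mice (2.11 to 2.62). The number of member calls after stimulation was 1 of 36 and depended on the processing: it was 2 with library size alone, 2 with DESeq2, 4 with limma-voom, and 0 with no filter on low counts, with the last same-label library only, without the low-Thy1 library of Mouse1592 and with only the 2 groups compared, and leaving out each mouse gave 0 to 1. With the mouse as a replicate block, which pairs slices of a mouse, it was 3, and in interactions it was 0 of 36. The cause of these differences was not tested. The number of all genes called after stimulation moved with the processing too. With limma-voom it was 3117 to 6307 over the 4 comparisons, against 1727 to 4453 with edgeR. With no filter on low counts it was 3629 in T41B mice with BD10-2, against 4453 with the filter. The numbers of member calls under the alternatives are thus not a result about the members. Of 40 calls of pathway genes 21 held under every alternative and every mouse left out, 19 were lost under at least 1, and 0 reversed. Library size alone lowered the share of stimulation calls that were higher from 66.7% to 52.6% in vehicle WT and from 58.3% to 39.5% in BD10-2 T41B mice. Counts of all called genes moved over 1.5 times in several settings: from 1215 to 352 (genotype, vehicle, sham) with batch as a covariate, from 1062 to 622 or 1731 (genotype, BD10-2, sham) with the first library or the 2 groups only, from 2056 to 1240 (genotype, BD10-2, stimulated) with the 2 groups only, and from 2397 to 4138 or 1581, 1727 to 3117 and 4197 to 6307 or 2582 (stimulation in vehicle WT, BD10-2 WT and vehicle T41B) with limma-voom or the 2 groups only. Leaving out a single mouse moved these counts over 1.5 times as well. Between genotypes they went from 1215 to 556, 606, 709, 795 or 2066 (vehicle, sham; without Mouse1551, Mouse1509, Mouse1553, Mouse1513 or Mouse1510), from 1128 to 678 (vehicle, stimulated; Mouse1551), from 1062 to 484, 577 or 597 (BD10-2, sham; Mouse1590, Mouse1565 or Mouse1571) and from 2056 to 1055 or 1364 (BD10-2, stimulated; Mouse1565 or Mouse1564). For stimulation they went from 2397 to 1238, 1479 or 1589 (vehicle WT; Mouse1509, Mouse1513 or Mouse1524), from 1727 to 758, 890 or 915 (BD10-2 WT; Mouse1565, Mouse1571 or Mouse1590) and from 4197 to 2648 (vehicle T41B; Mouse1551). Counts of 0 rose to 21 or 26 for treatment in stimulated WT slices (Mouse1522 or Mouse1524) and to 79 for genotype by stimulation with BD10-2 (Mouse1592), and to at most 2 elsewhere. DESeq2 called 25 genes for treatment in stimulated WT slices, where edgeR called 0. Depth limits Bace2, which had 8 to 74 counts per sample.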
